A study of Mus musculus with 12 samples.

Results

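The genes described here are 42 genes of the sarcomere and the Z-disc, of 19308 genes in the count matrix of 12 mouse hearts. They were picked by gene symbol, with earlier results of these data known. Of the 42, 9 encode the contractile proteins of the adult heart, 2 are atrial myosin light chains, 12 are skeletal or fetal isoforms, 3 belong to titin and the M-band, 3 set thin filament length, and 13 sit at or near the Z-disc. The hearts came from mice of 2 genotypes, wild type (WT) or carrying a global *Fabp3* knockout made with CRISPR-Cas9 (F3-KO). Surgery was done at 8 weeks of age and the hearts were taken 1 week later, with 3 hearts in each of 4 groups: WT sham, F3-KO sham, WT TAC and F3-KO TAC. In transverse aortic constriction (TAC) the aortic arch is tied against a needle that is then withdrawn, which leaves a narrowed vessel, and sham mice had no constriction. All groups share the strain and the time after surgery. The knockout is in every tissue and not in cardiomyocytes alone, and the RNA is from heart tissue with all its cell types. The question put to these genes is which isoforms differ with pressure load, and whether the knockout shifts them.

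The sarcomere is the contractile unit of striated muscle. Myosin in the thick filament pulls on actin in the thin filament, troponin and tropomyosin make this depend on calcium, titin runs from the Z-disc to the M-band as a spring, and the Z-disc anchors the thin filaments of neighbouring sarcomeres. Most of these proteins exist as isoforms encoded by separate genes in ventricle, atrium and skeletal muscle, and hearts under pressure load are known to re-express part of the fetal program. Z-disc proteins such as telethonin and muscle LIM protein are also thought to take part in sensing stretch.

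Library totals ran from 10424334 to 14372011 estimated counts, and the 42 genes held 7.7% to 10.4% of each. Of the genes, 14094 were tested, 38 members among them. *Fabp3* was at 2117 to 2849 CPM (edgeR's library-normalised count with TMM scaling) in WT sham and 2887 to 3064 CPM in WT TAC hearts, against 1002 to 1143 CPM in the 6 F3-KO hearts, so its mRNA was still counted in the knockout. Its log2 fold change of F3-KO over WT was -1.21 in sham and -1.49 in TAC hearts (adjusted p = 0.00784 and 0.00146, edgeR). At the protein level the authors reported a complete loss of FABP3 in the knockout heart. The fast skeletal myosin heavy chains *Myh1*, *Myh2* and *Myh4* were at 0 to 4 counts in every heart. Of the same list of skeletal muscle markers, *Casq1* was at 37 to 542, *Cacna1s* at 130 to 346 and *Pvalb* at 0 to 34 counts. The list (8 of 11 genes detected) summed to 25.7 to 53.5 CPM in WT sham and 28.0 to 32.4 in F3-KO sham hearts. It summed to 26.3 to 71.4 in WT TAC and 21.0 to 27.9 CPM in F3-KO TAC hearts. Most of each sum was *Casq1* and *Cacna1s*. Both F3-KO hearts numbered 2 stood apart by their atrial transcripts, described further on. Fibroblast markers (7 of 7 genes detected) summed to 757 to 1550 CPM in WT sham, 1080 to 1420 in F3-KO sham, 1460 to 3300 in WT TAC and 1590 to 7150 CPM in F3-KO TAC hearts, with the highest sum in F3-KO TAC replicate 2. Macrophage markers (7 of 7) summed to 237 to 491, 345 to 401, 436 to 625 and 514 to 756 CPM in the same order. Smooth muscle markers other than the member *Des* (7 of 7) summed to 410 to 665, 482 to 684, 394 to 621 and 357 to 569 CPM. The largest part of each sum was *Smtn*, at 153 to 368 CPM. *Cnn1* was at 6.83 and 15.2 CPM in F3-KO TAC replicates 1 and 2, against 0.458 to 3.19 CPM in the other hearts. *Tagln* was at 49.6 and 43.6 CPM there, against 13.7 to 33.6 CPM. None of the other smooth muscle markers was highest in those hearts. The part of these cells in the results below was not tested. In RNA from whole tissue, fewer cells of a type and less RNA per cell cannot be told apart.

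Per kilobase of merged exon, the adult cardiac isoforms were the most abundant members. *Actc1*, the cardiac alpha-actin, averaged 8640 CPM per kb over the 12 hearts, followed by *Myl2*, the ventricular regulatory light chain, at 7870, *Tnnt2* (cardiac troponin T) at 7240 and *Myl3*, the ventricular essential light chain, at 6140 CPM per kb. The 9 adult contractile genes made up 5.08% to 7.81% of a library. Among Z-disc genes, *Cryab*, a small heat shock protein that protects desmin, and *Myoz2*, which binds alpha-actinin and calcineurin, led with 1470 and 1380 CPM per kb. The giant *Ttn* was at 38.8 CPM per kb. The skeletal or fetal isoforms were far below, from 23.2 CPM per kb for *Myl1* (fast skeletal essential light chain) to 0.0734 for *Actn3*, and together held 0.00722% to 0.0302% of a library. *Tnni1*, *Tnnc2*, *Actn3* and *Myoz1*, at 0 to 11 counts per heart, were too low to be tested. *Tnni1* is the troponin I of the fetal heart, and it was at 1 to 11 counts in sham and 0 to 8 counts in TAC hearts.

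The 1 member whose difference passed the test was *Mybpc2*, the fast skeletal myosin binding protein C, a thick filament protein whose cardiac counterpart is *Mybpc3*. The bases before the RefSeq start sites of *Mybpc2*, *Mybpc3* and, for a skeletal isoform with lower values after TAC in F3-KO hearts, *Tnnt1* are shown because these genes carry the isoform comparison that follows. The 250 bases are written 5′ to 3′ on the gene's strand (build GRCm38.p6), *Mybpc2* from the minus strand of chr7:44524670-44524919, *Mybpc3* from the plus strand of chr2:91117894-91118143 and *Tnnt1* from the minus strand of chr7:4515976-4516225. Capitals mark an M-CAT motif (CATTCC, or its reverse complement) and E-boxes (CANNTG).
Mybpc2: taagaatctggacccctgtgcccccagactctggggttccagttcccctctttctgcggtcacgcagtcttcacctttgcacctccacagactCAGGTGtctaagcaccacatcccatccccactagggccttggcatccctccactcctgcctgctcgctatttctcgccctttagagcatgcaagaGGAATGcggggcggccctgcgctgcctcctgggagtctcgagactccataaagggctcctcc
Mybpc3: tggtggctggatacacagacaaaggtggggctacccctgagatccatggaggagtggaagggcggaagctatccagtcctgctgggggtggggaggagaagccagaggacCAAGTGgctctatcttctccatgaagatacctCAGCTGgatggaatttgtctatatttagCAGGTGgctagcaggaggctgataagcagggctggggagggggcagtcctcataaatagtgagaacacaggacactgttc
Tnnt1: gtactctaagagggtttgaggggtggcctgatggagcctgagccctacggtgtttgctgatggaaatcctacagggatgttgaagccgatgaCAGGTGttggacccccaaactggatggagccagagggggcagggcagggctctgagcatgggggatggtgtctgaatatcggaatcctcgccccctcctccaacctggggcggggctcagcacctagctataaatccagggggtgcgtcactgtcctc
In *Mybpc2* the M-CAT motif lay 62 to 57 bases and the E-box 157 to 152 bases before the start. *Mybpc3* held 3 E-boxes and no M-CAT motif, and *Tnnt1* held 1 E-box, with a TATAAA 30 to 25 bases before its start. The table had 47 windows for 34 of the 42 members, and 11 of these 47 (23.4%) held CATTCC on either strand, against 12.6% of all 32851 windows. An E-box was in 36 windows (76.6% against 66.2%), TATAAA in 6 (12.8% against 12.4%) and GATAA in 12 (25.5% against 22.6%). The CArG box, the site read by serum response factor, was found in 10 of the 47 windows (21.3%) and in 1.47% of all windows. Of the 9 windows of skeletal or fetal isoforms, 0 held a CArG box, and 5 of 16 Z-disc windows did. A MEF2 site was in 4 member windows (8.51% against 1.69%). These are matches of letters, both strands were searched, and several windows belong to the same gene.

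*Mybpc2* was at 17.3, 18.0 and 27.7 CPM in the WT sham hearts, 23.0, 27.6 and 15.7 in F3-KO sham, 90.9, 36.2 and 66.6 in WT TAC and 79.1, 132 and 113 CPM in F3-KO TAC. All 6 TAC hearts were above all 6 sham hearts, which held for 1 of 38 members and, in either direction, for 0.837% of all genes. The mean went from 21.6 ± 5.34 CPM (SD, n = 6) after sham to 86.3 ± 34.0 CPM (SD, n = 6) after TAC. Averaged over both genotypes *Mybpc2* rose by 1.95 on the log2 scale (standard error, SE, 0.24; adjusted p = 0.0105 over all genes by edgeR's quasi-likelihood test). Its p was the 3rd smallest of the 14094 genes. In WT hearts alone the log2 fold change was 1.62 (SE 0.33, adjusted p = 0.471, edgeR), and in F3-KO hearts 2.29 (SE 0.34, adjusted p = 0.0549, edgeR). The difference between these TAC responses was 0.67 (SE 0.46, adjusted p = 0.954, edgeR). F3-KO TAC hearts were above WT TAC hearts by 0.74 (unadjusted p = 0.0391, adjusted p = 0.48, edgeR), with overlapping values. The averaged call was lost without WT sham replicate 1 (adjusted p = 0.071), F3-KO sham replicate 1 (0.0645) or F3-KO sham replicate 3 (0.0583), at log2 fold changes of 1.85 to 1.97 (edgeR). None of its estimated counts was a whole number, and a transcript on the other strand (*Gm44646*) overlaps its exons, so that part of its reads may have been shared out between genes. Other genes overlap the exons of *Myom1* and *Nrap* (other strand) and *Tnni3* (*Dnaaf3*, same strand), with 25%, 100% and 100% of their counts not whole. *Des* is also overlapped on the other strand, and 0% of its counts were not whole.

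Over the members, *Mybpc2* was the 1 of 38 that passed in the averaged comparison of TAC with sham, where 0.078% of all genes tested did (edgeR, adjusted p under 0.05). DESeq2 called 4 members (*Mybpc2*, *Myl1*, *Tnnt1* and *Mylk3*) and 613 genes. At an unadjusted p no higher than 0.05 there were 15 members, against 17.8% of all genes: 12 were higher after TAC (11.3% of all genes were) and 3 lower (6.52%). This count was 9 without F3-KO sham replicate 2 or WT TAC replicate 1 and 6 without F3-KO sham replicate 3. The share of all genes at this threshold was not counted in those fits. The 11 members with the next smallest p had adjusted p values of 0.106 to 0.246 in this comparison (edgeR), and their values are given as measured.

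**Figure D1:**
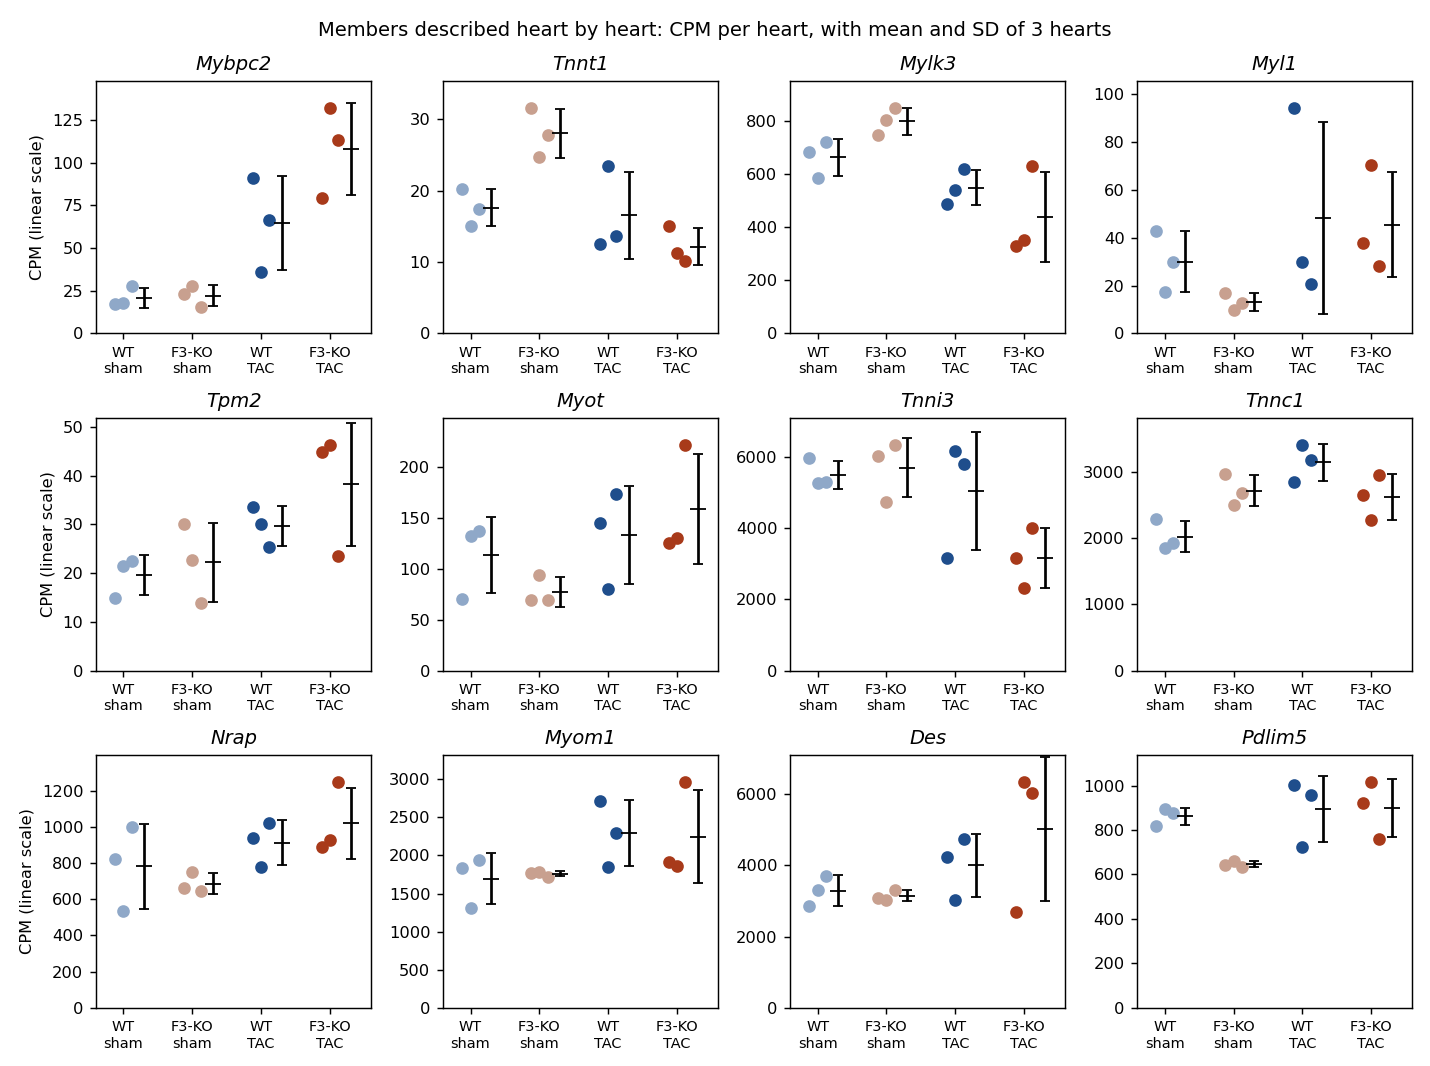
CPM (linear scale, from 0) of the 12 members with the smallest p in the averaged comparison of TAC with sham, with 1 point per heart, and the mean and SD of the 3 hearts of each group beside them. The groups separate in full for Mybpc2, whose sham hearts lie between 15.7 and 27.7 CPM and whose TAC hearts lie between 36.2 and 132 CPM, and overlap for the other 11.

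Among the skeletal isoforms, *Tnnt1*, the slow skeletal troponin T, was at 20.3, 15.1 and 17.4 CPM in WT sham, 31.6, 24.7 and 27.8 in F3-KO sham, 12.6, 23.5 and 13.6 in WT TAC and 15.1, 11.2 and 10.1 CPM in F3-KO TAC hearts. The F3-KO sham hearts were the 3 highest of all 12, and the F3-KO TAC hearts were all below them. The averaged log2 fold change was -0.65 (SE 0.17, unadjusted p = 0.00238, adjusted p = 0.106, edgeR). It was -0.09 in WT hearts (SE 0.24) and -1.20 in F3-KO hearts (SE 0.24). The difference between these was -1.12, with the smallest p of any member for it (unadjusted p = 0.00625, adjusted p = 0.954, edgeR). *Myl1* was at 42.9, 17.5 and 29.7 CPM in WT sham, 17.0, 9.69 and 12.7 in F3-KO sham, 94.1, 29.9 and 20.8 in WT TAC and 38.0, 70.4 and 28.2 CPM in F3-KO TAC hearts. WT TAC replicate 1 was the highest, and sham and TAC overlapped in WT hearts but not in F3-KO hearts. Its averaged log2 fold change was 1.24 (SE 0.38, adjusted p = 0.144, edgeR), and 0.78 without WT TAC replicate 1. *Tpm2*, the beta-tropomyosin of slow skeletal and smooth muscle, was at 14.9, 21.5 and 22.6 CPM in WT sham, 30.1, 22.8 and 13.8 in F3-KO sham, 33.5, 30.1 and 25.4 in WT TAC and 44.8, 46.3 and 23.6 CPM in F3-KO TAC hearts. F3-KO TAC replicates 1 and 2 were the highest and F3-KO TAC replicate 3 fell among the sham values. Its averaged log2 fold change was 0.69 (SE 0.21, adjusted p = 0.145, edgeR), and 0.81 with an adjusted p of 0.0329 when F3-KO TAC replicate 3 was left out. That fit called 849 of all genes, against 11 with all hearts.

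The other 4 tested members of this class were low and differed in direction. *Tnnt3*, the fast skeletal troponin T, was at 0.164 to 0.825 CPM in the 6 sham hearts and reached 3.7 and 2.06 CPM in F3-KO TAC replicates 2 and 3. *Mylpf* (fast skeletal regulatory light chain) was lower after TAC in WT hearts without overlap, at 0.352 to 0.7 CPM against 0.9 to 1.74 CPM, a handful of counts. *Tnni2* (fast skeletal troponin I), *Myom3* (a skeletal myomesin) and the 2 genes just named stayed under 11 CPM in every heart. Of the 8 tested skeletal or fetal isoforms, 6 were higher after TAC, with a median log2 fold change of 0.51 beside 0.00 over all genes.

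Of the adult contractile genes, *Mylk3*, the cardiac kinase that phosphorylates the regulatory light chain, was at 684, 584 and 720 CPM in WT sham, 745, 803 and 848 in F3-KO sham, 486, 541 and 618 in WT TAC and 329, 353 and 632 CPM in F3-KO TAC hearts. In F3-KO hearts no TAC value reached a sham value, and F3-KO TAC replicate 3 lay far above the other two. The averaged log2 fold change was -0.57 (SE 0.16, unadjusted p = 0.0038, adjusted p = 0.123, edgeR), and -0.75 with an adjusted p of 0.00886 without F3-KO TAC replicate 3, where 849 of all genes were called. *Tnni3*, the cardiac troponin I, was at 5968, 5267 and 5302 CPM in WT sham, 6042, 4756 and 6340 in F3-KO sham, 3158, 6191 and 5825 in WT TAC and 3164, 2324 and 3998 CPM in F3-KO TAC hearts. The F3-KO TAC hearts and WT TAC replicate 1 were the 4 lowest. Its averaged log2 fold change was -0.49 (SE 0.19, adjusted p = 0.208, edgeR). *Tnnc1*, the troponin C of heart and slow muscle, was at 2297, 1858 and 1925 CPM in WT sham, 2974, 2500 and 2685 in F3-KO sham, 2845, 3407 and 3191 in WT TAC and 2648, 2272 and 2959 CPM in F3-KO TAC hearts. WT TAC hearts were all above WT sham hearts, while the F3-KO groups overlapped. The averaged log2 fold change was 0.29 (SE 0.12, adjusted p = 0.216, edgeR).

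Of the M-band and Z-disc genes in this group, *Myot* (myotilin, which crosslinks actin) was at 70.6, 132 and 137 CPM in WT sham, 68.8, 93.9 and 68.9 in F3-KO sham, 145, 80.3 and 174 in WT TAC and 125, 130 and 221 CPM in F3-KO TAC hearts. *Nrap*, an anchoring protein of forming myofibrils, was at 821, 533 and 998 CPM in WT sham, 663, 753 and 644 in F3-KO sham, 939, 779 and 1024 in WT TAC and 889, 930 and 1248 CPM in F3-KO TAC hearts. For both, TAC and sham values overlapped in WT hearts and not in F3-KO hearts, and the averaged log2 fold changes were 0.63 and 0.40 (adjusted p = 0.19 and 0.218, edgeR). *Myom1*, the M-band protein myomesin, was at 1839, 1316 and 1934 CPM in WT sham, 1775, 1780 and 1721 in F3-KO sham, 2718, 1854 and 2300 in WT TAC and 1919, 1867 and 2960 CPM in F3-KO TAC hearts (log2 fold change 0.39, adjusted p = 0.22, edgeR). It again overlapped between sham and TAC in WT hearts alone.

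*Des*, the intermediate filament protein desmin, was at 2843, 3309 and 3707 CPM in WT sham, 3080, 3021 and 3314 in F3-KO sham, 4244, 3028 and 4745 in WT TAC and 2682, 6329 and 6031 CPM in F3-KO TAC hearts. F3-KO TAC replicate 1 was the lowest of all 12 and the other F3-KO TAC hearts were the highest. *Pdlim5*, a PDZ and LIM protein of the Z-disc, was at 817, 893 and 875 CPM in WT sham, 644, 662 and 634 in F3-KO sham, 1002, 725 and 960 in WT TAC and 923, 1015 and 759 CPM in F3-KO TAC hearts. All 3 F3-KO sham hearts were the lowest of the 12. The averaged log2 fold changes were 0.48 for *Des* and 0.27 for *Pdlim5* (adjusted p = 0.245 and 0.246, edgeR). Of the 13 Z-disc genes 9 were higher after TAC, with a median log2 fold change of 0.23.

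Within WT hearts 0 of 38 members passed the test of TAC against sham, with 0% of all genes (edgeR). DESeq2 called 2 members, *Mybpc2* (1.62) and *Tnnc1* (0.63), and 26 genes, and limma-trend called 0 members and 1 gene. At an unadjusted p no higher than 0.05 the members were 6, against 6.28% of all genes, and the TAC and sham values did not overlap for 5 against 9.1%. These were *Mybpc2*, *Mybpc3*, *Tnnc1* and *Tpm2*, higher after TAC (4.67% of all genes), and *Mylpf*, lower (4.43%). The first of these counts was 3 without WT sham replicate 1 or 2, F3-KO sham replicate 1 or WT TAC replicate 1. No share of all genes at that threshold was counted in those fits. *Mybpc3*, the cardiac isoform that adult hearts use, was at 3581, 2236 and 4353 CPM in WT sham and 4668, 4653 and 5480 CPM in WT TAC hearts, a log2 fold change of 0.54 (unadjusted p = 0.0492, adjusted p = 0.782, edgeR). All 3 WT TAC hearts were above the WT sham hearts, of which replicate 2 was the lowest.

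Within F3-KO hearts 0 of 38 members passed, again with 0% of all genes (edgeR). DESeq2 called 8 members and 442 genes, and limma-trend 1 member (*Mybpc2*) and 8 genes. At an unadjusted p no higher than 0.05 there were 15 members, against 17.1% of all genes, 10 of them higher (10.6% of all genes) and 5 lower (6.47%). The count was 9 without F3-KO TAC replicate 2, a fit in which the share of all genes at this threshold was not counted. Without F3-KO TAC replicate 3, edgeR called 6 members, namely *Mybpc2* (2.25), *Tpm2* (1.03) and the LIM protein *Fhl1* (0.93) higher and *Mylk3* (-1.23), *Tnnt1* (-1.09) and *Tcap* (-0.82) lower, among 778 genes called. Groups did not overlap for 12 members, against 22.9% of all genes. Of these, *Mybpc2*, *Myl1*, *Myom1*, *Myot*, *Nrap* and *Pdlim5* were higher (11.5% of all genes) and *Mylk3*, *Tnni3*, *Tpm1*, *Tnnt1*, *Tmod1* and *Tcap* lower after TAC (11.4%). The WT and F3-KO comparisons rest on separate hearts, and the test of their difference passed for 0 of 38 members (0% of all genes, edgeR; 0 members and 6 genes by DESeq2, 0 members and 1 gene by limma-trend). At an unadjusted p no higher than 0.05 this difference held 6 members, against 4.48% of all genes, with all hearts in the fit. The member count was 13 when F3-KO TAC replicate 3 was left out. It was 12 in the fit lacking WT TAC replicate 1. It was 3 in each fit that left out WT sham replicate 2, WT TAC replicate 2 or F3-KO TAC replicate 2. How many of all genes reached this threshold was not counted in those fits. Whether the members moved apart from all genes there cannot be told.

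Ratios of each skeletal, fetal or atrial isoform to its adult cardiac counterpart do not depend on library scaling. Of 14 pairs, 10 had counts enough for a ratio, and for 0 of them did all TAC hearts lie on one side of all sham hearts. *Mybpc2* to *Mybpc3* came closest. Its log2 ratio was -7.69, -6.96 and -7.30 in WT sham, -7.43, -7.15 and -7.83 in F3-KO sham, -5.68, -7.01 and -6.36 in WT TAC and -5.38, -5.17 and -5.59 in F3-KO TAC hearts. WT TAC replicate 2 lay just below the highest sham heart, and the F3-KO TAC hearts were the 3 highest of all. Per kilobase this is 7.4 ± 1.85 *Mybpc2* per 1000 *Mybpc3* in WT sham (SD, n = 3), 6.63 ± 1.52 in F3-KO sham (SD, n = 3), 15.1 ± 6.81 in WT TAC (SD, n = 3) and 27.9 ± 4.09 in F3-KO TAC hearts (SD, n = 3). Even there, the cardiac isoform held nearly all of the transcripts of the pair.

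*Tpm2* to *Tpm1*, both tropomyosins, averaged -9.03 ± 0.51 (SD, n = 6) after sham and -8.20 ± 0.60 (SD, n = 6) after TAC, with F3-KO TAC replicates 1 and 2 the highest. *Myl1* to *Myl3* went from -8.45 ± 0.98 (SD, n = 6) to -7.27 ± 1.14 (SD, n = 6), and *Tnnt3* to *Tnnt2* from -14.5 ± 0.80 (SD, n = 6) to -13.2 ± 1.64 (SD, n = 6). The troponin T pair *Tnnt1* to *Tnnt2* moved the other way, from -8.76 ± 0.40 (SD, n = 6) to -9.24 ± 0.63 (SD, n = 6). For troponin I, *Tnni2* to *Tnni3* was -12.6 ± 0.68 (SD, n = 6) after sham and -11.8 ± 0.40 (SD, n = 6) after TAC. In F3-KO hearts its 3 TAC values (-11.4 to -11.7) were above the 3 sham values (-12.3 to -13.3). Of the 4 pairs left, *Mylpf* to *Myl2* had a difference of TAC from sham of -0.62, *Myl4* to *Myl3* of 0.32, *Myom3* to *Myom2* of 0.23 and *Myl7* to *Myl2* of 0.00, averaged over genotypes. Without F3-KO TAC replicate 2 the last 3 were -0.30, -0.08 and -0.80, and without F3-KO sham replicate 2 *Myl4* to *Myl3* was 0.91 and *Myl7* to *Myl2* 0.66. The pairs thus did not all move in 1 direction.

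**Figure D2:**
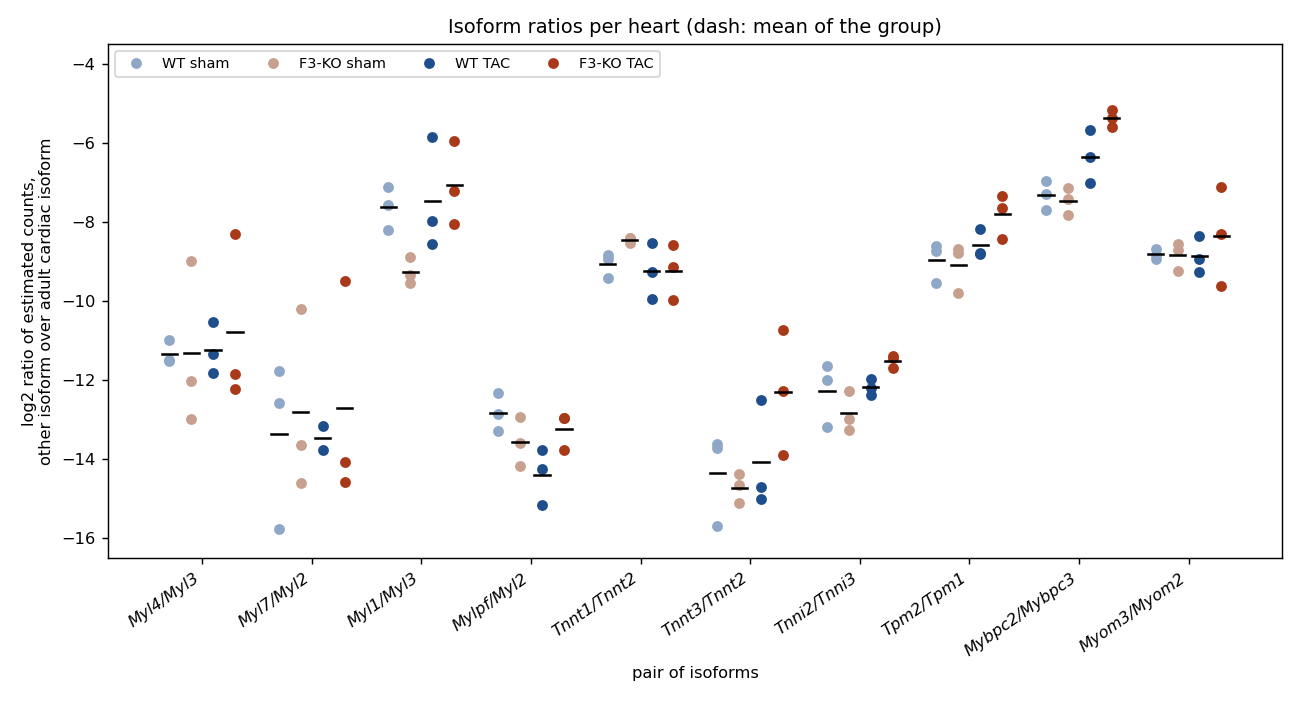
Log2 ratio of the estimated counts of the skeletal, fetal or atrial isoform to those of the adult cardiac isoform, for 10 pairs, with 1 point per heart and a dash at the group mean (Myl7/Myl2 has no point for WT TAC replicate 2, where Myl7 was at 0). Every point is below -5, so the cardiac isoform dominates each pair, and Mybpc2/Mybpc3 shows the F3-KO TAC hearts (-5.38, -5.17 and -5.59) at the top.

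The knockout was compared with WT separately in sham and in TAC hearts, which are different animals. In sham hearts 0 of 38 members passed (0.106% of all genes; edgeR), also by DESeq2 and limma-trend, and 7 had an unadjusted p no higher than 0.05 (6.02% of all genes). The sham groups did not overlap for 9 members (13.7% of all genes), with *Myl3*, *Mylk3*, *Tnnc1* and *Tnnt1* higher (6.78%) and *Fhl1*, *Fhl2*, *Ldb3*, *Myl1* and *Pdlim5* lower (6.92%) in F3-KO hearts. In TAC hearts 0 members passed (0.078% of all genes, edgeR), DESeq2 called 1 (*Tcap*) and limma-trend 0. DESeq2 called more of all genes than edgeR in the TAC comparisons above, and its number for all genes here is not given. By edgeR 4 members had an unadjusted p no higher than 0.05 (10% of all genes). Of these *Mybpc2* was higher (5.84%) and *Tcap*, *Tpm1* and *Tnni3* were lower (4.16%). All 9 adult contractile genes were higher in F3-KO than in WT sham hearts, with a median log2 fold change of 0.26 and a range of 0.05 to 0.48, where 49.2% of all genes were higher. All 9 were lower in F3-KO than in WT TAC hearts, with a median of -0.37 and a range of -0.14 to -0.68, where 53.1% of all genes were higher. Both counts of 9 held under DESeq2 size factors and under scaling without the members, and were 8 or 9 when any 1 heart was left out. It follows from these signs that the difference between the 2 genotype effects was negative for all 9 (median -0.72, 54.2% of all genes were above 0). It was also negative for all 9 without any 1 heart, with adjusted p values of 0.954 to 0.973 with all hearts (edgeR). The 9 genes were measured in the same hearts and are not separate observations.

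**Figure D3:**
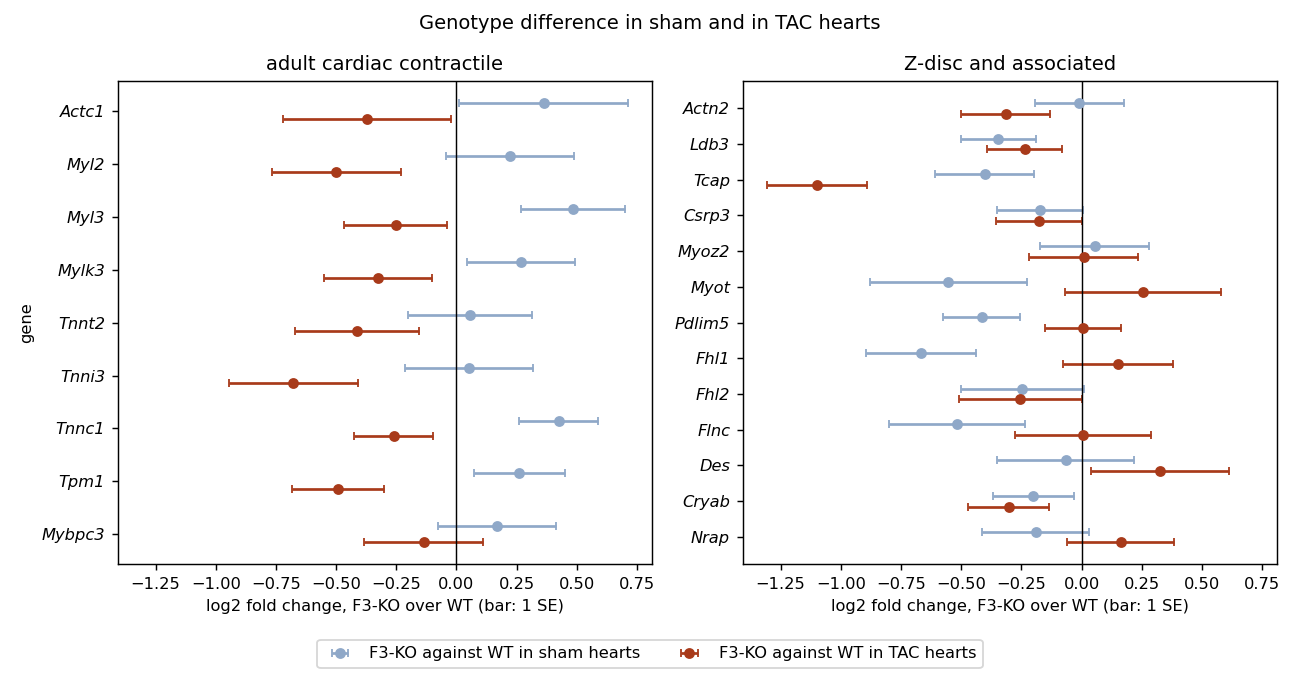
Log2 fold change of F3-KO over WT in sham hearts (light) and in TAC hearts (dark) for the 9 adult cardiac contractile genes and the 13 Z-disc genes, with bars of 1 standard error. All light points of the contractile genes are above 0 and all dark points below 0. Among Z-disc genes Tcap in TAC hearts lies farthest from 0, at -1.10.

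Single genes of this class show the pattern. *Tpm1*, the alpha-tropomyosin of the thin filament, was at 11110, 8435 and 9592 CPM in WT sham, 12430, 10100 and 12370 in F3-KO sham, 9767, 13520 and 11190 in WT TAC and 8940, 7491 and 8077 CPM in F3-KO TAC hearts. The sham groups overlapped, and the F3-KO TAC hearts were all below the WT TAC hearts. Its log2 fold changes of F3-KO over WT were 0.26 (unadjusted p = 0.194) in sham and -0.49 (unadjusted p = 0.0232) in TAC hearts, and the difference between them was -0.75 (SE 0.27, unadjusted p = 0.0156, adjusted p = 0.954, edgeR). *Myl3* was at 5928, 5182 and 5669 CPM in WT sham, 8007, 7193 and 8283 in F3-KO sham, 5440, 7509 and 7886 in WT TAC and 5652, 4387 and 7454 CPM in F3-KO TAC hearts. F3-KO sham hearts were above WT sham hearts without overlap, and the TAC groups overlapped. *Tnnc1*, whose values are given above, differed likewise between the sham groups without overlap (log2 fold change 0.42, unadjusted p = 0.0234, adjusted p = 0.714, edgeR). *Tnni3*, with a log2 fold change of 0.05 in sham hearts, was at -0.68 in TAC hearts (unadjusted p = 0.0259, adjusted p = 0.474, edgeR). *Actc1* ranged from 6892 CPM in F3-KO TAC replicate 3 to 22690 CPM in WT TAC replicate 2.

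As a share of the library, the 9 contractile genes held 5.6% ± 0.35 in WT sham (SD, n = 3), 6.52% ± 0.564 in F3-KO sham (SD, n = 3), 6.64% ± 1.32 in WT TAC (SD, n = 3) and 5.4% ± 0.343 in F3-KO TAC hearts (SD, n = 3). The WT TAC hearts ranged from 5.2% to 7.81%, which overlaps both F3-KO groups. Ventricular markers (3 of 4 genes detected, summed level set by the adult myosin heavy chain *Myh6*) were at 16300 to 34200 CPM in WT sham, 31900 to 34500 in F3-KO sham, 20500 to 34500 in WT TAC and 14500 to 21300 CPM in F3-KO TAC hearts. As *Myh6* is itself a contractile gene, this sum is not a separate measure of ventricular tissue. In the same order of groups, *Irx4* was at 45.1 to 67.4, 41.0 to 53.3, 26.4 to 52.2 and 39.9 to 43.5 CPM. *Hey2* was at 8.8 to 9.9, 4.4 to 7.3, 5.7 to 9.7 and 4.0 to 7.0 CPM. Fibroblast marker sums were 4060, 7150 and 1590 CPM in the F3-KO TAC hearts, the first 2 of them above every other heart. The part of ventricular tissue or of fibroblasts in the contractile gene values was not tested.

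Of the 13 Z-disc genes, 12 were lower in F3-KO than in WT sham hearts, with a median log2 fold change of -0.25, and the one higher was *Myoz2* at 0.05. This count was 10 without WT sham replicate 3, and 12 under both other scalings. In TAC hearts 7 were higher and 6 lower, and 5 higher and 8 lower under either other scaling, with medians of 0.005, -0.0034 and -0.0069. *Fhl1*, a LIM protein linked to stretch sensing, was at 197, 279 and 254 CPM in WT sham, 159, 150 and 150 in F3-KO sham, 248, 194 and 220 in WT TAC and 276, 308 and 151 CPM in F3-KO TAC hearts. The F3-KO sham hearts were all below the WT sham hearts (log2 fold change -0.67, SE 0.23, unadjusted p = 0.013, adjusted p = 0.6, edgeR). F3-KO TAC replicate 3 stood with the F3-KO sham hearts and not with the other F3-KO TAC hearts. *Pdlim5* also did not overlap between the sham groups (log2 fold change -0.41, unadjusted p = 0.0231, adjusted p = 0.714, edgeR). *Ldb3*, a Z-disc partner of alpha-actinin, was at 1497, 1471 and 1978 CPM in WT sham and 1345, 1297 and 1250 CPM in F3-KO sham hearts, and *Fhl2* at 1471, 1509 and 1870 against 1408, 1246 and 1432 CPM. Both were lower in all F3-KO sham hearts, with unadjusted p values of 0.0471 and 0.353 (edgeR).

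*Tcap*, which encodes telethonin, the cap that joins titin ends at the Z-disc, had the smallest p of any member between F3-KO and WT TAC hearts. It was at 1585, 956 and 1407 CPM in WT sham, 1075, 874 and 1037 in F3-KO sham, 1317, 1503 and 1267 in WT TAC and 535, 595 and 779 CPM in F3-KO TAC hearts. The 3 F3-KO TAC hearts were the lowest of all 12. The means were 1363 ± 124 CPM (SD, n = 3) in WT TAC and 637 ± 127 CPM (SD, n = 3) in F3-KO TAC hearts. The log2 fold change was -1.10 (SE 0.21, unadjusted p = 2e-04, adjusted p = 0.109, edgeR), with a DESeq2 adjusted p of 3.46e-05. Without F3-KO TAC replicate 3 it was -1.27 (adjusted p = 0.034, edgeR), in a fit that called 103 of all genes, against 11 with all hearts. The difference from the sham effect (-0.40) was -0.70 (adjusted p = 0.954, edgeR). Besides *Tcap*, the values of F3-KO and WT TAC hearts did not overlap for *Tpm1*, *Actn2* (alpha-actinin, the main crosslinker of the Z-disc) and *Tmod1* (tropomodulin, which caps the thin filament), and these 4 of 38 stand against 11.4% of all genes. All 4 were lower in F3-KO (5.1% of all genes, with 0 members higher against 6.3%). *Actn2* was at 3341, 2916 and 2842 CPM in WT TAC and 2361, 2175 and 2776 CPM in F3-KO TAC hearts. The number of members with an unadjusted p no higher than 0.05 between TAC groups was 10 without F3-KO TAC replicate 3, 9 without WT TAC replicate 1, 2 without WT TAC replicate 3, and 1 without WT TAC replicate 2 or F3-KO TAC replicate 2. Between sham groups it was 1 without F3-KO sham replicate 1, 2 without WT sham replicate 3 and 3 without F3-KO sham replicate 3. It was 4 without WT sham replicate 2, F3-KO sham replicate 2 or F3-KO TAC replicate 1. The share of all genes at this threshold was not counted in these fits. Whether the members changed apart from all genes cannot be told from these counts. At an adjusted p under 0.05, leaving out 1 heart moved all genes called between 6 and 103 (TAC groups) and 2 and 23 (sham groups, edgeR).

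The atrial light chains followed single hearts and not groups. *Myl4*, the atrial essential light chain, was at 2.04, 2.57 and 1.88 CPM in WT sham, 1.91, 14.2 and 1.01 in F3-KO sham, 1.49, 2.91 and 5.30 in WT TAC and 1.52, 13.8 and 1.57 CPM in F3-KO TAC hearts. *Myl7*, the atrial regulatory light chain, was at 1.65, 2.57 and 0.164 CPM in WT sham, 0.915, 8.13 and 0.458 in F3-KO sham, 0.471, 0 and 1.5 in WT TAC and 0.304, 8.55 and 0.577 CPM in F3-KO TAC hearts. Replicate 2 was the highest for both genes in both F3-KO groups. The same hearts had the highest counts of 2 other atrial markers. *Sln*, the atrial regulator of the calcium pump, was at 19 and 36 counts there and at 0 to 3 in the other hearts. *Dkk3* was at 95 and 716 counts against 14 to 77. Of the 5 atrial markers listed besides the light chains 4 were in the table, and the list summed to 25.6 to 28.5 CPM in WT sham, 21.6 to 27.9 in F3-KO sham, 15.5 to 26.0 in WT TAC and 15.3 to 58.8 CPM in F3-KO TAC hearts. The part of atrial tissue in these values was not tested. The median log2 fold change of the pair between F3-KO and WT was 1.26 in sham and 1.56 in TAC hearts, and -0.81 and -0.80 once both F3-KO hearts numbered 2 were left out. In TAC against sham the pair had median log2 fold changes of -0.30 in WT and 0.00 in F3-KO hearts, and neither gene passed any test.

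**Figure D4:**
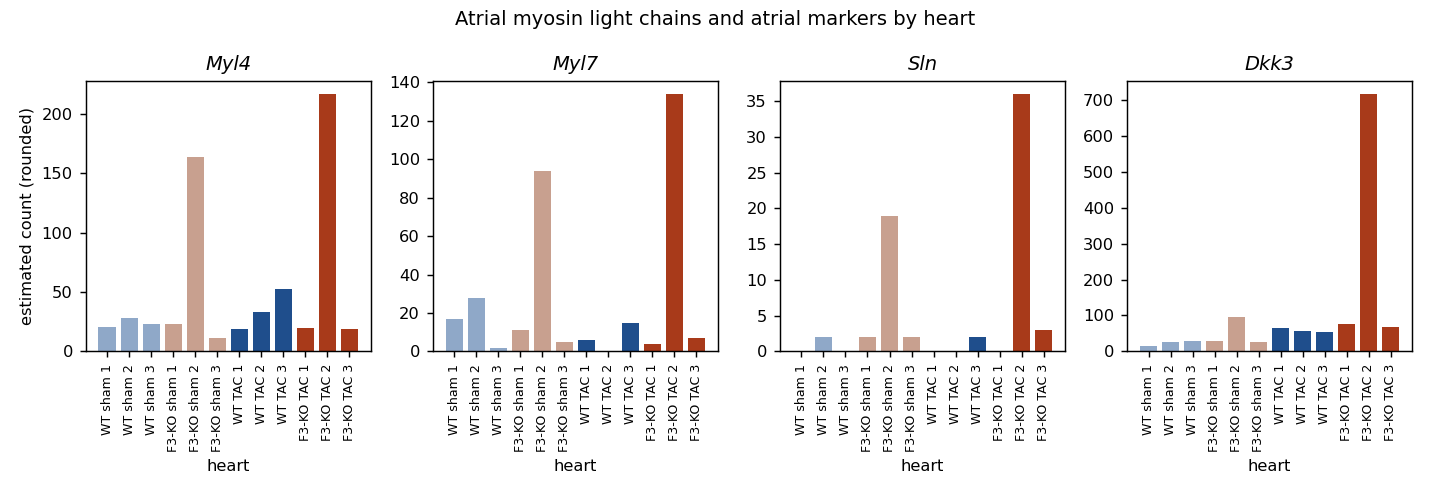
Estimated counts (rounded, linear axes from 0) of Myl4 and Myl7 and of the atrial markers Sln and Dkk3, with 1 bar per heart coloured by group. Replicate 2 of the F3-KO sham and of the F3-KO TAC group is the tallest of its group in all 4 panels, with Sln at 19 and 36 counts against 0 to 3 elsewhere.

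Spread between hearts of a group differed by class. The coefficient of variation, pooled over the 4 groups, had a median of 22% over the 38 tested members. It was lowest for *Ldb3* (10.6%), *Tnnc1* (10.8%) and *Pdlim5* (11.3%), and highest for *Myl7* (124%), *Myl4* (95.3%) and *Tnnt3* (67%). Class medians were 21.1% for adult contractile, 19.5% for Z-disc, 13.4% for thin filament length and 36.1% for skeletal or fetal genes. *Myom2*, an M-band myomesin, varied by 42.4%, from 1106 CPM in F3-KO TAC replicate 1 to 4187 CPM in F3-KO TAC replicate 3. WT sham replicate 2 had the lowest value of all 12 hearts for 8 members, among them *Ttn*, *Mybpc3*, *Lmod2*, *Nrap* and *Actn2*. F3-KO TAC replicate 2 had the highest value for 9 (*Mybpc2*, *Tpm2*, *Des*, *Flnc* and *Fhl1* among them) and the lowest for 5, namely *Myl2*, *Myl3*, *Tnni3*, *Tpm1* and *Ldb3*. F3-KO TAC replicate 3 had the highest for 6, which were *Ttn*, *Myom1*, *Myom2*, *Myoz2*, *Myot* and *Nrap*. The 3 F3-KO TAC hearts thus differed among themselves in which structural genes were high.

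**Figure D5:**
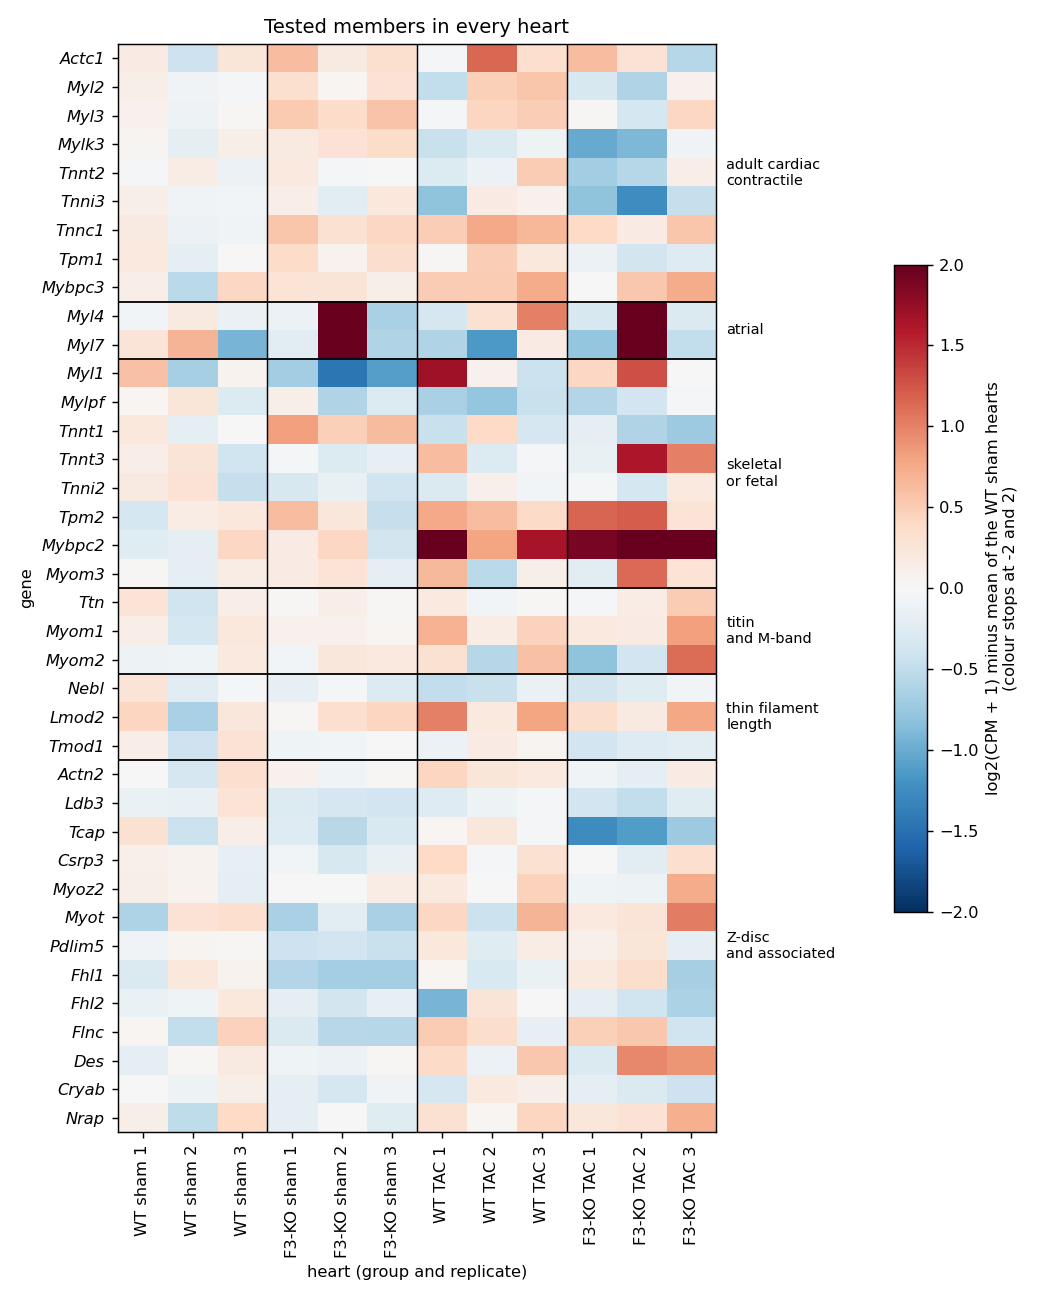
Each of the 38 tested members (rows, by class) in each of the 12 hearts (columns, by group), coloured by log2(CPM + 1) minus the mean of the WT sham hearts, with the colour scale ending at -2 and 2. Mybpc2 is red in all 6 TAC hearts, the light chains Myl4 and Myl7 are red in replicate 2 of both F3-KO groups, and Tcap is blue in the 3 F3-KO TAC hearts.

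None of the 6 genes of titin, the M-band and filament length passed the test of TAC against sham. *Ttn* was at 3119 to 5000 CPM in WT sham, 4193 to 4509 in F3-KO sham, 3957 to 4709 in WT TAC and 4046 to 5850 CPM in F3-KO TAC hearts, with an averaged log2 fold change of 0.10 (SE 0.14, adjusted p = 0.765, edgeR). *Lmod2*, leiomodin, which lengthens the thin filament, was at 952, 451 and 825 CPM in WT sham, 718, 891 and 958 in F3-KO sham, 1420, 813 and 1223 in WT TAC and 901, 804 and 1204 CPM in F3-KO TAC hearts. Its TAC and sham values overlapped, and the averaged log2 fold change was 0.41 (SE 0.20, adjusted p = 0.311, edgeR). *Tmod1* and *Nebl*, the nebulette that ties the thin filament to the Z-disc, had averaged log2 fold changes of -0.12 and -0.21 (adjusted p = 0.639 and 0.351, edgeR).

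Other genes of the same structures were read from lists. Of 30 further sarcomere and Z-disc genes 29 were tested, and 1 passed in the averaged comparison of TAC with sham (edgeR), while DESeq2 called 6, all higher. At an unadjusted p no higher than 0.05, 9 were higher and 2 lower, where 11.3% of all genes were higher and 6.52% lower. That gene was *Acta1*, the skeletal alpha-actin that fetal hearts express, which rose by 3.36 on the log2 scale (SE 0.48, adjusted p = 0.0248, edgeR). It was at 156, 44.9 and 156 CPM in WT sham, 328, 753 and 198 in F3-KO sham, 3202, 762 and 800 in WT TAC and 3564, 3566 and 3044 CPM in F3-KO TAC hearts. All TAC hearts were above all sham hearts, WT TAC replicate 2 just above F3-KO sham replicate 2. The call was lost without WT sham replicate 1 or 3 or F3-KO sham replicate 1 or 3, with adjusted p values of 0.0858 to 0.129 (edgeR). *Myh7*, the fetal ventricular myosin heavy chain, ranged from 347 to 9179 CPM among WT sham hearts and from 174 to 23130 CPM among F3-KO TAC hearts, and did not pass (log2 fold change 2.72, adjusted p = 0.194, edgeR). Of 14 chaperone and turnover genes 0 passed by edgeR or limma-trend and 1 (*Hspb7*) by DESeq2, and 2 were higher and 0 lower at an unadjusted p no higher than 0.05. Of 14 transcriptional regulators of sarcomere genes 0 passed by edgeR, DESeq2 or limma-trend, and 0 were higher and 4 lower at the same threshold. The medians of these last lists were -0.04 and -0.16.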

How the data were processed

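RNA of 12 hearts was sequenced. The authors deposited estimated counts per gene, not normalized (expected counts, of which 40.6% were not whole). The submitters' processing notes name HISAT2 2.0.4, STAR 2.3.0, DESeq2 and the builds mm8 and mm9, without roles. The counting tool is not given in the sources used here. Counts that share reads between similar or overlapping genes may shift between isoform genes. The tests were planned for whole counts, so values were rounded. Of 19308 genes, 14094 passed filterByExpr (minimum count 10). TMM scaling and edgeR 4.0.16's quasi-likelihood model of the 4 groups (R 4.3.3, 8 residual degrees of freedom) gave 6 contrasts, with Benjamini-Hochberg adjustment over all genes and calls at adjusted p under 0.05. The model was tested on simulated data before use. Class medians and isoform ratios carry no test.

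The members and lists were chosen with earlier results of these data known. By rule, members given heart by heart were those called in any contrast, filled to 12 by the smallest p of the averaged TAC contrast. *Tpm1*, *Myl3*, *Fhl1*, *Tcap*, *Lmod2*, *Myl4* and *Myl7* were added to these after their values were seen, as were genes of the lists other than *Acta1*. CPM per kb used merged exon lengths of GENCODE M21, which is a build other than the named ones. Promoter windows are from RefSeq. Alternatives were DESeq2 1.42.0, limma 3.58.1, other scalings, filters and thresholds, a replicate block, fits on the compared libraries alone, and leaving out each heart. A count of 3 is 0.209 to 0.288 CPM, a floor for counting error only. Replicates of one group differed beyond counting noise (chi-square per degree of freedom 8.42 to 67). The own table of WT sham replicate 2 breaks off early, so the joint table was used, and 11 of the 11 other tables matched it.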

Additional observations from a re-analysis of the deposited data

How the results depend on the processing

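The call of *Mybpc2* in the averaged comparison of TAC with sham held under DESeq2, 2 other scalings, 2 other filters, limma-trend and a size minimum of 1 on the log2 scale. The number of members called rose with DESeq2 from 0 to 2 for TAC in WT hearts, from 0 to 8 for TAC in F3-KO hearts, from 1 to 4 in the averaged comparison and from 0 to 1 between TAC groups. DESeq2 also called more of all genes than edgeR in the comparisons of TAC with sham, as given above. For TAC in F3-KO hearts 1 member (*Mybpc2*) was called with scaling without the members, without a filter and with at least 10 counts in every library. The same held with limma-trend and at adjusted p under 0.1. At an unadjusted p no higher than 0.05, fits on the compared libraries alone gave 3 members for TAC in WT hearts and 1 between TAC groups, where DESeq2 gave 8 and limma-trend 2. Leaving out both F3-KO hearts numbered 2, an alternative chosen after seeing the data, gave 3 for TAC in WT hearts, 8 for TAC in F3-KO hearts, 1 between TAC groups and 3 for the difference of genotype effects, and medians between genotypes of -0.81 (sham) and -0.80 (TAC) for the atrial pair and -0.10 (TAC) for Z-disc genes. The share of all genes at the unadjusted threshold was not counted under these settings. The cause of these changes was not tested.

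Leaving out 1 heart moved the members called between 0 and 6 (TAC in F3-KO hearts), 0 and 3 (averaged) and 0 and 1 (between TAC groups), the highest each without F3-KO TAC replicate 3. Without that heart, 778, 849 and 103 of all genes were called in these comparisons, against 0, 11 and 11 with all hearts (edgeR). The counts at an unadjusted p no higher than 0.05 moved between 3 and 8 (TAC in WT hearts), 9 and 17 (TAC in F3-KO hearts), 6 and 14 (averaged), 1 and 8 (between sham groups), 1 and 10 (between TAC groups) and 3 and 13 (difference of genotype effects). The share of all genes at that threshold was not counted in these fits. Class medians ranged as follows. For adult contractile genes they were 0.13 to 0.46 (TAC in WT) and -0.64 to -0.29 (TAC in F3-KO). For the atrial pair they were -2.37 to 2.05 (TAC in F3-KO), -0.81 to 1.76 (sham groups), -0.80 to 2.51 (TAC groups) and -2.06 to 2.36 (difference of genotype effects). For skeletal or fetal genes they were -0.12 to 0.53 (TAC in WT) and 0.24 to 0.75 (TAC groups). For Z-disc genes they were 0.0063 to 0.2094 (TAC in WT), 0.0656 to 0.33 (TAC in F3-KO), -0.39 to -0.19 (sham groups), -0.15 to 0.0042 (TAC groups) and 0.0749 to 0.22 (difference of genotype effects). Of 140 ratios recomputed, 140 moved by less than the SD between hearts of a group. Leaving out 1 heart cannot move an averaged difference of group means by that much, so this count does not show stability. *Myl7* to *Myl2* ranged from -0.80 to 0.66 when 1 heart was left out.

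Hearts with the same replicate number were not taken as pairs, as the labels do not name them as such. Of 18 such pairs from different groups, 4 correlated above 0.1 (median 0.037, highest 0.362). Of 36 pairs with different numbers, 2 did (median -0.031, highest 0.196). What the replicate number stands for was not tested. With a replicate block the members called were 1 in the averaged comparison (*Mybpc2*, adjusted p = 0.0491, edgeR) and 0 in the others. *Acta1* was no longer called (adjusted p = 0.0519, edgeR). Over the 6 comparisons, 6, 15, 13, 6, 3 and 7 members showed an unadjusted p no higher than 0.05. The share of all genes at that threshold was not counted with the block. With 3 hearts in each group and class medians within hearts' spread, small differences between isoforms were not detectable, and members under 1 CPM rest on a few counts.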
